A study of Mus musculus with 24 samples.

Results

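The mu-class glutathione transferases are cytosolic enzymes that join glutathione to reactive compounds, and in the mouse they are encoded by the genes Gstm1 to Gstm7. The members were taken by gene name, and all 7 were found among the 15160 genes in the table of counts. Liver RNA of 24 male mice aged 5 months was sequenced from the 3′ end of transcripts, with 6 mice for each pairing of genotype (WT or NRF2 KO) with diet (Con or MR). Con was a diet with 0.86% methionine and MR (methionine restriction) a diet with 0.17% methionine, both made with elemental amino acids. By the labels they were fed from 8 weeks of age for 8 weeks, with a 4 h fast before the livers were taken. The study's methods place energy expenditure measurements and a return to home cages between the 8 weeks and the harvest. The time on diet at harvest may therefore be longer than 8 weeks. WT mice are labelled NRF2fl/fl and carry floxed Nfe2l2 alleles without Cre. NRF2 KO mice are labelled NRF2fl/(alb) and carry Cre under the albumin promoter, which is active in hepatocytes. Which other cells of the liver keep the gene was not tested.

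Conjugation to glutathione makes electrophiles such as drug metabolites, epoxides and lipid peroxidation products more soluble, after which transporters export the conjugates and peptidases trim them towards mercapturates. The mu class is among the most abundant glutathione transferase classes of the liver, next to the alpha and pi classes. The transcription factor NRF2, encoded by Nfe2l2, binds antioxidant response elements and is known to control many genes of glutathione synthesis and conjugation. The comparisons ask how a low-methionine diet, which limits a precursor of glutathione, and the loss of NRF2 in hepatocytes each bear on these transcripts.

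Values are CPM, the reads of a gene scaled to a common library size after TMM normalization, in the 22 mice that remain without WT_CON_7604 and WT_MR_7612, which the study left out as outliers. This leaves 5 mice on each diet for WT and 6 on each for NRF2 KO, 1 library each, with 6197291 to 22068338 counted reads per mouse. A read marks the end of a transcript, so a count does not grow with transcript length and CPM can be set side by side between genes. In a whole liver, fewer cells of a type and less RNA per cell cannot be told apart. The liver label was checked by 6 hepatocyte markers (Alb, Apoa1, Ttr, Apob, Serpina1a and Trf), whose sum lay between 78097 and 131136 CPM over the mice. Cre excises part of exon 5 of Nfe2l2, and since reads at the 3′ end remained in NRF2 KO, they do not test the deletion itself. They do set 1 library apart from its label, since they came to 94.0 to 125 CPM in 9 of the WT libraries, 202 to 339 CPM in the 12 NRF2 KO libraries and 324 CPM in the library labelled WT_CON_7607. Each member's log2 fold change or interaction value that rests on WT Con is therefore given with and without that library. For the lists of other genes, counts from comparisons with WT Con that change without it are given.

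The 7 genes lie together on chromosome 3 of GRCm38, over 149 kb from 107895821 to 108044894. In chromosome order they are Gstm5 (107895821 to 107898686, plus strand), then on the minus strand Gstm7 (107926334 to 107931817), Gstm6 (107938847 to 107943749), Gstm3 (107963696 to 107969283), Gstm2 (107981702 to 107986453), Gstm1 (108012255 to 108017973) and Gstm4 (108040408 to 108044894). They are close paralogs. The coding sequences of their longest protein-coding transcripts in GENCODE M21 were from 66.6% identical, for Gstm5 and Gstm6, to 89.4% identical, for Gstm1 and Gstm3, and the 3′ untranslated regions of Gstm1 and Gstm3 were 75.7% identical. Reads of near-identical copies can be split or swapped, so exact repeats were counted in the last 500 bases of each of these transcripts, where the reads fall. At the 50-base read length of the labels, 4 of 451 positions in Gstm1 repeated in Gstm3, 4 of 451 in Gstm3 repeated in Gstm1, and 14 of 451 in Gstm2 repeated in the gene Gm6665. No position of Gstm4, Gstm5, Gstm6 or Gstm7 was shared at that length, and at 75 bases, the read length given in the study's methods, none was shared by any member. Repeats with mismatches were not counted.

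Promoter sequence was read from RefSeq (GRCm38.p6), from 250 bases before to 50 after each start site, and all 7 genes matched with 12 windows between them. The core letters of the antioxidant response element, TGACNNNGC, were searched on both strands and no other motif was searched. They stood in 2 of the 12 windows, against 12.4% of all 32851 windows, and in 2 of the 7 genes, against 14% of 27025 genes. The matches were TGACCACGC in Gstm5 at -42 and TGACAAAGC in Gstm7 at -129, counted from the start site of the window as 0. Both the start site of that Gstm7 window and its core lie inside the gene bounds already given, downstream of the outer start at 107931817. The other Gstm7 window, 107931768 to 107932067, did not hold the letters. None of the windows of Gstm1, Gstm2, Gstm3, Gstm4 or Gstm6 held them. A match is a description of the letters and not a bound site, and no match says only that the letters are not in these 300 bases. The 4 sequences printed here, 5′ to 3′ on the strand of the gene with the core in capitals, show the genes whose levels spanned most (Gstm1 and Gstm3, with no capitals) beside those that hold the core (Gstm5 and Gstm7).
Gstm1, minus strand, chr3:108017769-108018068: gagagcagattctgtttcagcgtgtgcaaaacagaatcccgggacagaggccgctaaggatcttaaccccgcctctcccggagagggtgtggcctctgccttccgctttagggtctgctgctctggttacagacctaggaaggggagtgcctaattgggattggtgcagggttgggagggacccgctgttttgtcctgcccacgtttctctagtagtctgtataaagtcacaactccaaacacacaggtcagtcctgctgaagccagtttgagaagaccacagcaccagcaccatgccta
Gstm3, minus strand, chr3:107969125-107969424: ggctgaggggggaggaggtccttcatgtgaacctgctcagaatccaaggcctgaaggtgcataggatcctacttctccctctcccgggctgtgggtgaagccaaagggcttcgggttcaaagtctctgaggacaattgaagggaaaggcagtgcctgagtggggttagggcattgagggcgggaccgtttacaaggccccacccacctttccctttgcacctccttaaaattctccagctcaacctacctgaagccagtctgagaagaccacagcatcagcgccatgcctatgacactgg
Gstm5, plus strand, chr3:107895604-107895903: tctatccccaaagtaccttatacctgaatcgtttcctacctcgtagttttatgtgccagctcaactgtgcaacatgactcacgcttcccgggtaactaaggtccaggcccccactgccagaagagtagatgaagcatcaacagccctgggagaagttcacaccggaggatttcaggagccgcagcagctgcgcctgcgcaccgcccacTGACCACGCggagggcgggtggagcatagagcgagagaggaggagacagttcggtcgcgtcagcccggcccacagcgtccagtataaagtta
Gstm7, minus strand, chr3:107931565-107931864: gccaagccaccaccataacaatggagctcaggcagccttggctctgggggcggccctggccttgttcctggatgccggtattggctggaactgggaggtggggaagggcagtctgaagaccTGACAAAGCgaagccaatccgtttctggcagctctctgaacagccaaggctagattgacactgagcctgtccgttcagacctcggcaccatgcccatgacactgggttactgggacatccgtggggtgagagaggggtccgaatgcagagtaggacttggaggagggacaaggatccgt

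Levels within a group were led by Gstm1 in every mouse. In WT Con, Gstm1 (ENSMUSG00000058135), the major mu-class transcript of mouse liver, averaged 1229 ± 608 CPM (SD, n = 5), which over the 22 mice together placed it at percentile 99.5 of the genes tested. Gstm7, Gstm2, Gstm6 and Gstm3 followed at 79.0, 74.0, 68.7 and 62.7 CPM with ranges that overlapped from each gene to the next, so their order was not set beyond the spread between mice. Gstm4 at 41.2 CPM overlapped Gstm3, and Gstm5 was lowest at 13.9 CPM, below Gstm4 in 5 of 5 mice. In WT MR the order was Gstm1, Gstm3, Gstm2, Gstm4, Gstm7, Gstm6 and Gstm5. The ranges of the neighbours Gstm2 and Gstm4 and of the neighbours Gstm7 and Gstm6 overlapped. Compared within mice of WT MR, Gstm2 lay above Gstm4 in 4 of 5 and Gstm7 above Gstm6 in 5 of 5. Gstm3 held the second place there with 328 CPM and the last place in NRF2 KO Con with 10.5 CPM, where it overlapped Gstm5 and Gstm5 overlapped Gstm4. In NRF2 KO MR Gstm2 and Gstm7 overlapped, as did Gstm6 with Gstm3 and Gstm3 with Gstm4.

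Across the 4 groups the members fell apart into genes with a wide and genes with a narrow span of means. Gstm3 spanned 31.3-fold and Gstm1 14.0-fold, each lowest in NRF2 KO Con and highest in WT MR. Gstm4 and Gstm2 spanned 6.53-fold and 3.30-fold between the same groups. Gstm6, Gstm7 and Gstm5 spanned 1.57-fold, 1.22-fold and 1.14-fold. The 4 genes with the wide span stand next to each other on the chromosome, from Gstm3 to Gstm4, and the 3 others stand on the Gstm5 side.

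**Figure D1:**
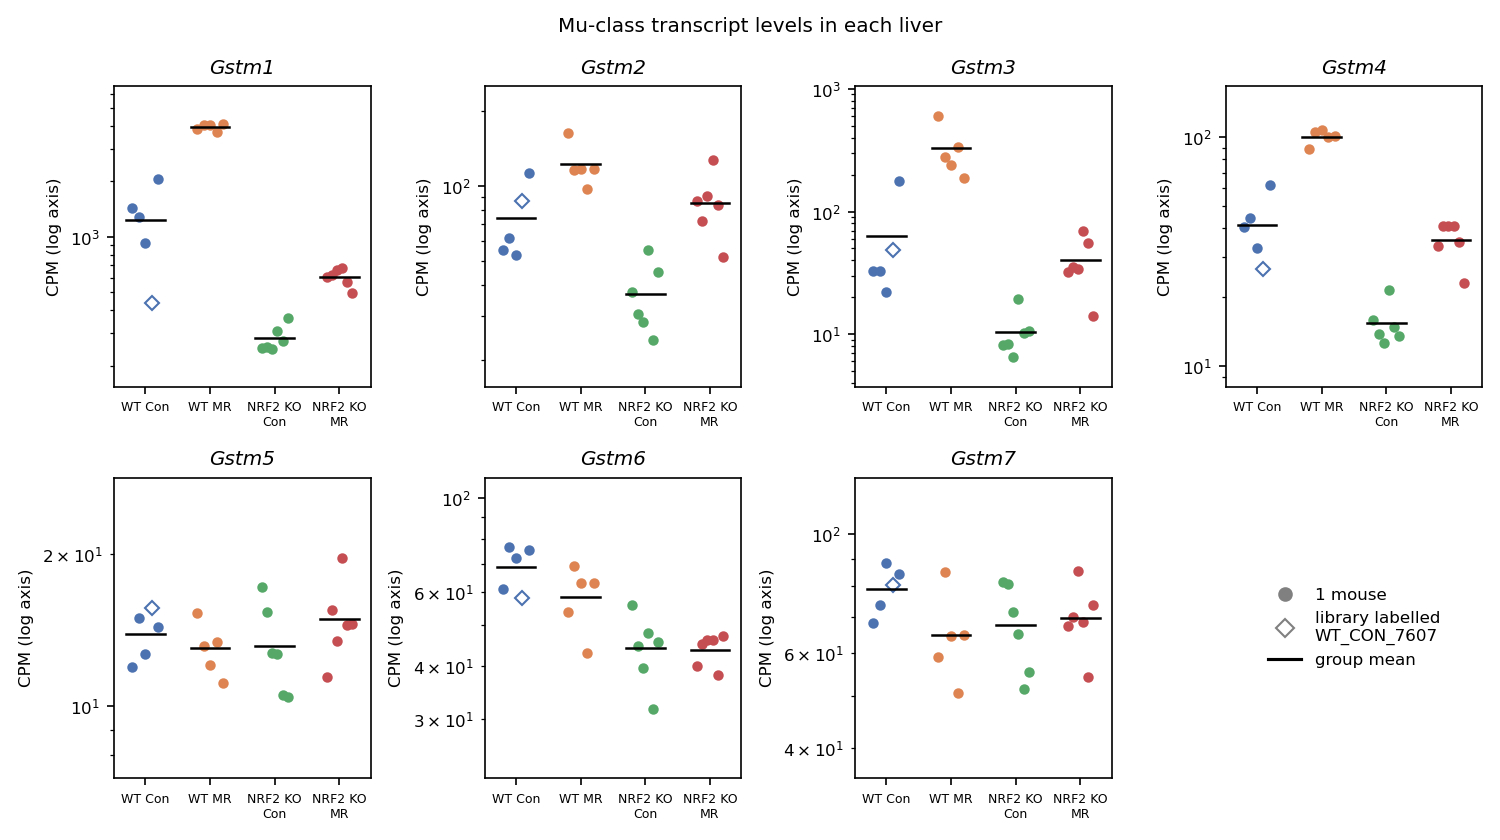
CPM (log axis, scaled separately for each gene) of the 7 mu-class genes in each liver, with 5 mice per WT group and 6 per NRF2 KO group. Lines are group means and the open diamond is the library labelled WT_CON_7607. Gstm1 lies between 3727 and 4096 CPM in WT MR and at most at 2075 CPM elsewhere, while the 4 groups overlap for Gstm5 and Gstm7.

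The diet was compared first in mice with hepatic NRF2. On MR 3 of the 7 genes rose in WT, Gstm1, Gstm3 and Gstm4, and none fell, where 6.91% of the 13336 genes tested were called higher and 6.91% lower (edgeR quasi-likelihood test, Benjamini-Hochberg adjusted p under 0.05). The median log2 fold change was 0.72 over the members and -0.01 over all genes tested. For the same 3 genes every WT MR mouse lay above every WT Con mouse, as was the case for 5.32% of all genes. The same 3 were called without the library labelled WT_CON_7607, against 5.68% of genes.

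Gstm1 stood at 1431, 1279, 922, 439 and 2075 CPM in the WT Con mice, the fourth of which is the library labelled WT_CON_7607, and at 3844, 4068, 4074, 3727 and 4096 CPM in the WT MR mice. The groups did not overlap, and the WT MR mice lay close together while the WT Con mice were spread widely. The fold change was 3.22 (log2 1.69, SE 0.24, adjusted p = 0.00014 from edgeR), and without the library labelled WT_CON_7607 it was 2.78 (log2 1.48, SE 0.16, adjusted p = 6.3e-06). The coefficient of variation was 49.5% in WT Con, 33.8% without that library, and 4.20% in WT MR.

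Gstm3 (ENSMUSG00000004038) stood at 32.8, 32.5, 21.97, 48.8 and 177 CPM in the WT Con mice in the same order, and at 601, 277, 241, 334 and 189 CPM in WT MR. All WT MR mice were above all WT Con mice, but WT_CON_7608 at 177 CPM came near the lowest of them. The fold change was 5.21 (log2 2.38, SE 0.54, adjusted p = 0.0071 from edgeR), and log2 2.31 without the library labelled WT_CON_7607 (adjusted p = 0.020). Without WT_CON_7608 it was log2 3.28 (adjusted p = 0.00018), and in a fit of the WT groups alone the call was lost (log2 2.38, adjusted p = 0.055), while over all alternatives the adjusted p ran from 0.00012 to 0.055.

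Gstm4 (ENSMUSG00000027890) had 40.6, 44.5, 32.7, 26.7 and 61.7 CPM in WT Con and 88.6, 105, 107, 100.1 and 102 CPM in WT MR. The groups were apart, with a fold change of 2.43 (log2 1.28, SE 0.18, adjusted p = 0.00011 from edgeR) and log2 1.16 without the library labelled WT_CON_7607 (adjusted p = 0.00026).

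Gstm2 (ENSMUSG00000040562) had 55.6, 61.8, 52.8, 87.3 and 113 CPM in WT Con and 163, 116, 117, 96.7 and 117 CPM in WT MR. The highest Con mouse, WT_CON_7608, overlapped the MR mice. The log2 fold change of 0.72 (95% interval 0.19 to 1.24) did not pass the threshold with an adjusted p of 0.063 from edgeR, nor without the library labelled WT_CON_7607 (log2 0.79, adjusted p = 0.073). It did pass with DESeq2 (adjusted p = 0.020), with limma on the deposited normalized values, over all 24 mice, and without WT_CON_7608, KO_CON_7621, KO_MR_7629 or KO_MR_7632, and over all alternatives the adjusted p ran from 0.020 to 0.16.

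The other members did not pass. Gstm5 (ENSMUSG00000004032), the counterpart of human GSTM3, was between 11.1 and 15.7 CPM in the 10 WT mice, with a log2 difference of -0.09 (95% interval -0.38 to 0.20). Gstm6 (ENSMUSG00000068762) ranged from 57.9 to 76.5 CPM in WT Con and from 43.1 to 69.1 CPM in WT MR, a log2 difference of -0.23 (95% interval -0.49 to 0.03, adjusted p = 0.24 from edgeR). Gstm7 (ENSMUSG00000004035) ranged from 68.2 to 88.4 CPM and from 50.6 to 85.1 CPM, a log2 difference of -0.28 (95% interval -0.56 to 0.00, adjusted p = 0.18 from edgeR). Both intervals for Gstm6 and Gstm7 exclude a rise of the size seen for Gstm4. Without the library labelled WT_CON_7607 the log2 differences of these genes were -0.04, -0.28 and -0.27, and none passed.

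The diet effect was then measured in mice whose hepatocytes lack NRF2. In NRF2 KO 4 of the 7 genes rose on MR and none fell, against 6.23% of genes called higher and 6.34% called lower. They were Gstm1, Gstm2, Gstm3 and Gstm4, and the median log2 fold change was 1.10 over the members and 0.00 over all genes. The NRF2 KO MR and Con mice did not overlap for 2 of them, Gstm1 and Gstm4, as was the case for 2.62% of all genes. No mouse of this comparison belongs to WT Con, and the same 4 genes passed without the library labelled WT_CON_7607, which enters the fit only through the shared spread.

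Gstm1 in NRF2 KO Con ran from 247 over a median of 262 to 365 CPM, and in NRF2 KO MR from 499 over 616 to 674 CPM. All MR mice were above all Con mice, with a fold change of 2.15 (log2 1.10, SE 0.22, adjusted p = 0.0026 from edgeR). The lowest, median and highest values of Gstm4 were 12.7, 14.3 and 21.5 CPM on Con and 23.2, 37.9 and 41.2 CPM on MR. These groups were also apart, with a fold change of 2.32 (log2 1.21, SE 0.17, adjusted p = 0.00016 from edgeR).

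Gstm2 ran from 24.2 over 34.1 to 55.2 CPM on Con and from 51.8 over 85.3 to 127 CPM on MR. The lowest MR mouse, KO_MR_7632, lay just under the highest Con mouse, KO_CON_7621, and the fold change was 2.31 (log2 1.21, SE 0.23, adjusted p = 0.0024 from edgeR). Gstm3 ran from 6.53 over 9.25 to 19.3 CPM on Con and from 14.0 over 34.8 to 68.8 CPM on MR. The same 2 mice made its groups overlap, and the fold change was 3.82 (log2 1.93, SE 0.51, adjusted p = 0.019 from edgeR).

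Gstm5, Gstm6 and Gstm7 differed little between the diets in NRF2 KO. Gstm5 lay between 10.4 and 19.6 CPM in the 12 mice (log2 0.17, 95% interval -0.09 to 0.43), Gstm6 between 31.8 and 55.9 CPM (log2 -0.02, 95% interval -0.26 to 0.22) and Gstm7 between 51.5 and 85.2 CPM (log2 0.04, 95% interval -0.21 to 0.30). All 3 intervals stay under the change of Gstm4. The sign of Gstm6 turned with library size scaling (0.14) and with limma on the normalized values (0.01).

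Whether the diet effect itself differed between the genotypes was tested as the interaction, the log2 fold change in NRF2 KO minus that in WT. None of the 7 genes passed, against 0.045% of all genes, and without the library labelled WT_CON_7607 none passed, against 0.0893%. In edgeR over the 22 mice, and without the library labelled WT_CON_7607, none had an unadjusted p under 0.05. Unadjusted p was not counted in the other fits. DESeq2 and limma called 0 at the adjusted threshold. The difference was -0.58 for Gstm1 (95% interval -1.26 to 0.09, adjusted p = 0.72 from edgeR), 0.49 for Gstm2 (-0.22 to 1.2), -0.45 for Gstm3 (-1.96 to 1.06) and -0.07 for Gstm4 (-0.59 to 0.45). The intervals for Gstm1 and Gstm3 are wide and include both no difference and a clearly smaller diet effect in NRF2 KO. The value of Gstm1 without the library labelled WT_CON_7607 was -0.37 (95% interval -0.80 to 0.05). Without WT_CON_7608, the highest WT Con mouse for both genes, it was -0.86 for Gstm1 (SE 0.28, adjusted p = 0.42 from edgeR) and -1.34 for Gstm3 (SE 0.56, adjusted p = 0.60). Over all alternatives the adjusted p ran from 0.42 to 0.86 for Gstm1 and from 0.60 to 0.99 for Gstm3. For Gstm5, Gstm6 and Gstm7 the differences were 0.26, 0.21 and 0.32. Leaving out the library labelled WT_CON_7607 gave 0.42 for Gstm2, -0.37 for Gstm3 and 0.05 for Gstm4. The values for Gstm5, Gstm6 and Gstm7 were then 0.21, 0.26 and 0.31. The value of Gstm4 turned positive with library size scaling (0.02) and without WT_CON_7605, the library labelled WT_CON_7607, KO_CON_7621 or KO_MR_7632, none of which brought it past the threshold.

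**Figure D2:**
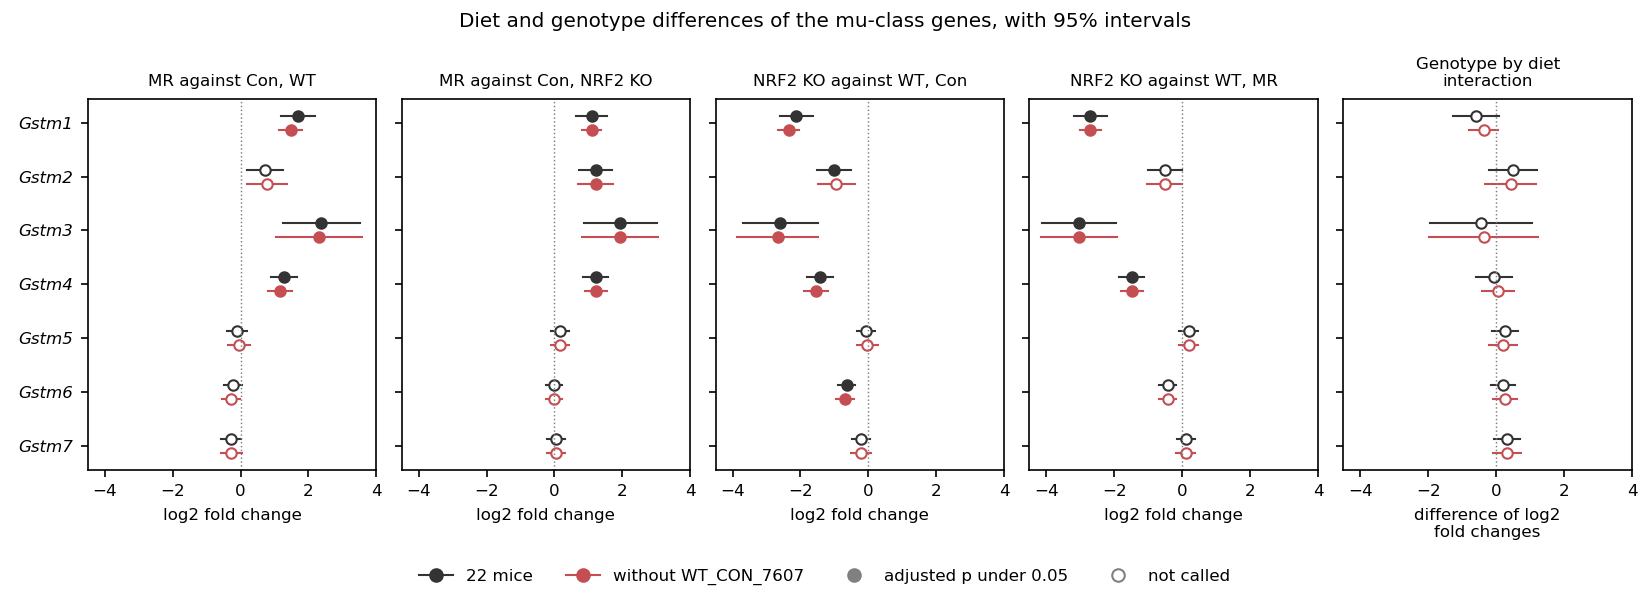
Log2 fold change (points) and 95% interval (lines) of each mu-class gene for the 4 comparisons and the interaction, from edgeR over 22 mice (black) and without the library labelled WT_CON_7607 (red). Filled points passed an adjusted p of 0.05. Gstm1, Gstm3 and Gstm4 are filled in the 4 comparisons and no gene is filled in the interaction.

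Genotype was compared on the Con diet, with the WT Con mice that also served the diet comparison. In NRF2 KO Con 5 of the 7 genes fell below WT Con and none rose, where 1.27% of genes were called lower and 0.802% higher. They were Gstm1, Gstm2, Gstm3, Gstm4 and Gstm6, and the median log2 fold change was -1.004 over the members and 0.00 over all genes. Every NRF2 KO Con mouse lay below every WT Con mouse for Gstm1, Gstm3, Gstm4 and Gstm6, which held for 0.885% of all genes. Leaving out the library labelled WT_CON_7607 left 4 calls, against 1.5% of genes, and lost Gstm2.

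The largest changes were those of Gstm3 and Gstm1. Gstm1 was at 439 CPM or more in WT Con and at 365 CPM or less in NRF2 KO Con, and it was 4.36-fold lower (log2 -2.12, SE 0.23, adjusted p = 7.3e-05 from edgeR). The library labelled WT_CON_7607 was the WT Con value nearest to NRF2 KO, and without it, with 922 CPM or more in WT Con, the log2 fold change was -2.34 (SE 0.15, adjusted p = 1.7e-10). Gstm3 was 21.97 CPM or more in WT Con and 19.3 CPM or less in NRF2 KO Con, a 6.02-fold lower level (log2 -2.59, SE 0.53, adjusted p = 0.012 from edgeR). Its size rested in part on WT_CON_7608, without which the log2 fold change was -1.70 (adjusted p = 0.046), and the call was lost in the fit of the 2 groups alone (adjusted p = 0.087), with adjusted p from 4.4e-05 to 0.087 over the alternatives. Without the library labelled WT_CON_7607 it was -2.67 (adjusted p = 0.015).

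Gstm4 fell 2.68-fold (log2 -1.42, SE 0.18, adjusted p = 0.00029 from edgeR), and had a log2 fold change of -1.54 without the library labelled WT_CON_7607. That library held the lowest WT Con value, 26.7 CPM, above the highest NRF2 KO Con value of 21.5 CPM. Gstm6 fell 1.55-fold (log2 -0.63, SE 0.12, adjusted p = 0.0047 from edgeR), from 57.9 to 76.5 CPM in WT Con to 31.8 to 55.9 CPM in NRF2 KO Con. That library was the lowest of WT Con here too, and without it the log2 fold change of Gstm6 was -0.69 (adjusted p = 0.0024).

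Gstm2 was lower too (log2 -1.004, SE 0.24, adjusted p = 0.033 from edgeR), and the groups overlapped between 52.8 and 55.2 CPM. This call was lost without the library labelled WT_CON_7607 (-0.94, adjusted p = 0.069), without WT_CON_7608, KO_CON_7617, KO_CON_7618, KO_CON_7620 or KO_CON_7622, with library size scaling and in the fit of the 2 groups alone, and the adjusted p ran from 0.00096 to 0.11 over all alternatives. Gstm5 (log2 -0.07, 95% interval -0.35 to 0.20) and Gstm7 (log2 -0.22, 95% interval -0.49 to 0.05) did not pass, and their values without the library labelled WT_CON_7607 were -0.03 and -0.21.

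On the MR diet, where no mouse belongs to WT Con, 3 of the 7 genes were lower in NRF2 KO, Gstm1, Gstm3 and Gstm4, against 1.38% of genes called lower and 0.555% called higher. The median log2 fold change was -0.51 over the members and 0.00 over all genes. For these 3 every NRF2 KO MR mouse lay below every WT MR mouse, as for 2.91% of all genes. Gstm1 was 6.53-fold lower (log2 -2.71, SE 0.24, adjusted p = 6.2e-07 from edgeR), at 674 CPM or less against 3727 CPM or more. Gstm3 was 8.21-fold lower (log2 -3.04, SE 0.52, adjusted p = 0.0025) and Gstm4 2.81-fold lower (log2 -1.49, SE 0.17, adjusted p = 1.8e-05).

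NRF2 KO MR and WT Con mice can be set side by side. For Gstm1 the NRF2 KO MR mice, at 499 to 674 CPM, lay below 4 of the 5 WT Con mice and above the library labelled WT_CON_7607. For Gstm2, Gstm3 and Gstm4 the ranges of NRF2 KO MR and WT Con overlapped, at 51.8 to 127 against 52.8 to 113 CPM for Gstm2, 14.0 to 68.8 against 21.97 to 177 CPM for Gstm3, and 23.2 to 41.2 against 26.7 to 61.7 CPM for Gstm4. These groups differ in both diet and genotype and were not tested against each other.

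Gstm2 and Gstm6 did not pass on MR. Gstm2 had a log2 difference of -0.51 (95% interval -1.01 to -0.01, adjusted p = 0.34 from edgeR), with 5 of the 6 NRF2 KO MR mice, at 51.8 to 90.6 CPM, below every WT MR mouse and KO_MR_7629 at 127 CPM among them. Gstm6 had -0.42 (95% interval -0.67 to -0.17, adjusted p = 0.066), which passed with DESeq2 (adjusted p = 0.038), in the fit of the 2 groups alone and without WT_MR_7615 or KO_CON_7622, with adjusted p from 0.018 to 0.18. Gstm5 (0.19, 95% interval -0.09 to 0.47) and Gstm7 (0.10, 95% interval -0.17 to 0.37) were on the higher side in NRF2 KO without passing.

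The make-up of the mu-class transcripts shifted with their sum. Summed over the 7 genes, the level was 1569 ± 685 CPM (SD, n = 5) in WT Con and, on MR, 4649 ± 173 CPM (SD, n = 5). In NRF2 KO it was 470 ± 55.7 CPM (SD, n = 6) with Con and 896 ± 110 CPM (SD, n = 6) with MR. The sum in WT Con without the library labelled WT_CON_7607 was 1772 ± 592 CPM (SD, n = 4). Gstm1 supplied 75.9 ± 10.3% of the sum in WT Con (80.3 ± 3.08% without that library, n = 4), 85.3 ± 3.31% in WT MR, and in NRF2 KO 59.9 ± 5.17% with Con and 67.8 ± 1.79% with MR. Gstm7, which passed in no comparison, supplied 5.98 ± 3.03% (4.82 ± 1.79% without that library), 1.39 ± 0.25%, 14.6 ± 3.37% and 7.88 ± 1.42% in the same groups. The shares follow from the levels already given and carry no test of their own.

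**Figure D3:**
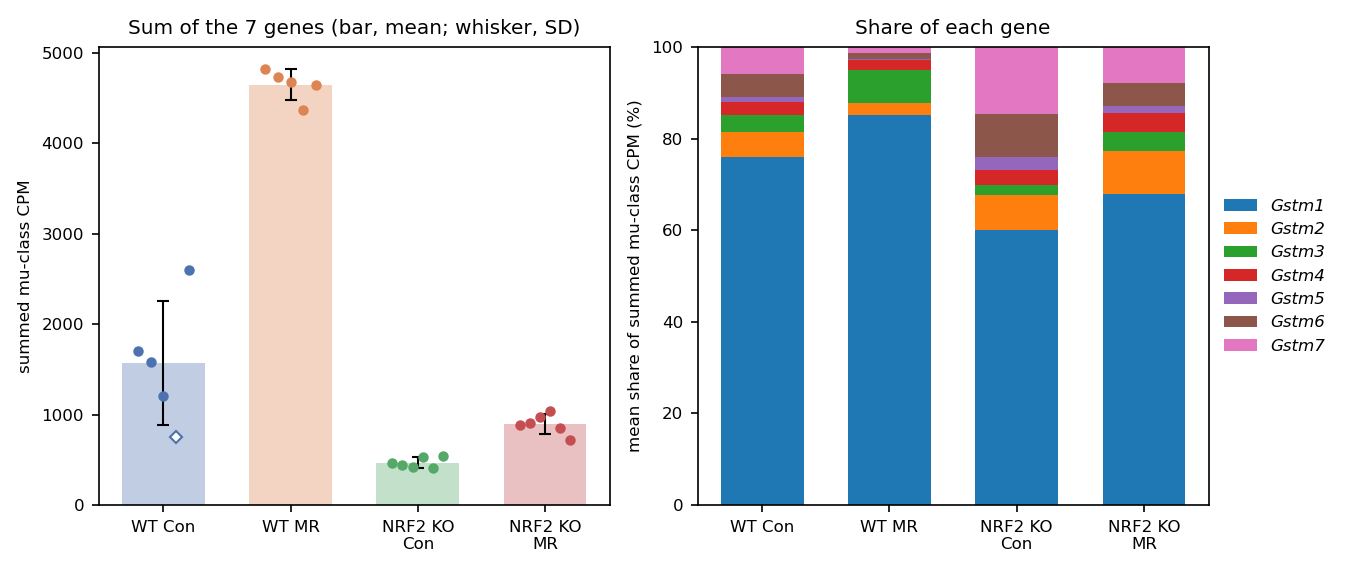
Left, summed CPM of the 7 mu-class genes per mouse (points), with the group mean (bar) and SD (whisker) and the library labelled WT_CON_7607 as an open diamond. Right, mean share in percent of each gene in that sum. The sum is highest in WT MR at 4649 CPM and lowest in NRF2 KO Con at 470 CPM, and the share of Gstm7 is widest in NRF2 KO Con at 14.6%.

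The genes around the cluster were read beside the shares of all genes called. GENCODE M21 lists 35 further genes within 250 kb of the outermost members, and 12 of them were tested. None was called for the diet in WT, where their log2 fold changes ran from -0.73 to 0.52, and 1 was called in NRF2 KO, Psma5, a proteasome subunit, with a log2 fold change of 0.34 (adjusted p = 0.038 from edgeR). None was called for genotype on Con, with log2 fold changes from -0.59 to 0.41. On MR 1 was called, Ahcyl1, with a log2 fold change of -0.26 (adjusted p = 0.041 from edgeR), and none passed the interaction. The same counts were found without the library labelled WT_CON_7607. For so few genes, counts of 0 or 1 do not set them apart from the background shares already given. Within the cluster, the genes from Gstm3 through Gstm2 and Gstm1 to Gstm4 rose in NRF2 KO on MR, and Gstm6, next to Gstm3, joined them among the falls in NRF2 KO Con.

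**Figure D4:**
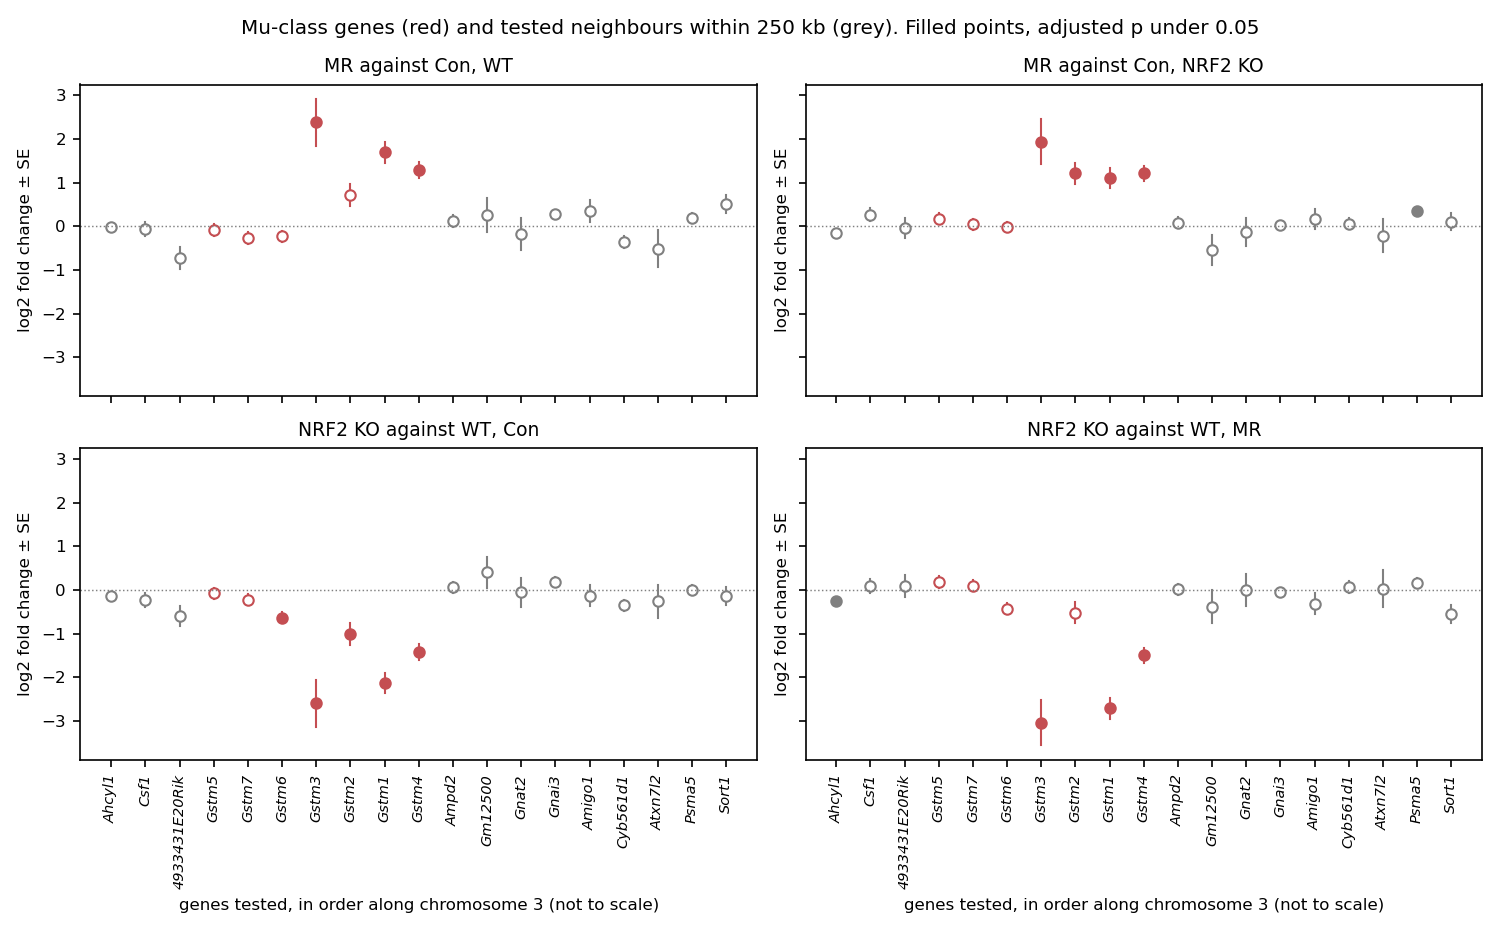
Log2 fold change ± SE (vertical axis) of the 7 mu-class genes (red) and the 12 tested neighbours (grey), placed in order along chromosome 3 and not to scale, for the 4 comparisons. Filled points passed an adjusted p of 0.05. In WT on MR against Con, Gstm1, Gstm3 and Gstm4 lie at 1.28 or more and are filled. There Gstm2 lies at 0.72 and is not filled, and the neighbours lie between -0.73 and 0.52.

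Mice of the same group also differed from each other. After each group's mean was subtracted from log2 CPM, the deviations over the 22 mice were described by Pearson's r, with no test, since mice of a group share conditions and libraries share their depth across genes. Gstm2 and Gstm3, which are neighbours, had r = 0.81, Gstm1 and Gstm4, also neighbours, r = 0.74, and Gstm6 and Gstm7, neighbours as well, r = 0.71. The other pairs of neighbours had lower values, with r = 0.34 for Gstm5 and Gstm7, 0.24 for Gstm1 and Gstm2 and -0.08 for Gstm3 and Gstm6. Gstm3 and Gstm4, which are not neighbours, had r = 0.62, and Gstm1 and Gstm7 r = -0.11. By rank correlation (Spearman's rho), which weighs far values less, Gstm3 and Gstm4 had 0.34 and Gstm1 and Gstm2 0.42. It was 0.70 for Gstm2 and Gstm3, 0.72 for Gstm1 and Gstm4, 0.56 for Gstm6 and Gstm7 and -0.26 for Gstm1 and Gstm7. The values of Gstm1 depended on the library labelled WT_CON_7607. Without it, over 21 mice, r rose from 0.24 to 0.70 for Gstm1 and Gstm2 and from 0.38 to 0.71 for Gstm1 and Gstm3, while it was 0.82 for Gstm2 and Gstm3, 0.70 for Gstm1 and Gstm4, 0.75 for Gstm6 and Gstm7, 0.72 for Gstm3 and Gstm4 and 0.69 for Gstm2 and Gstm4.

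**Figure D5:**
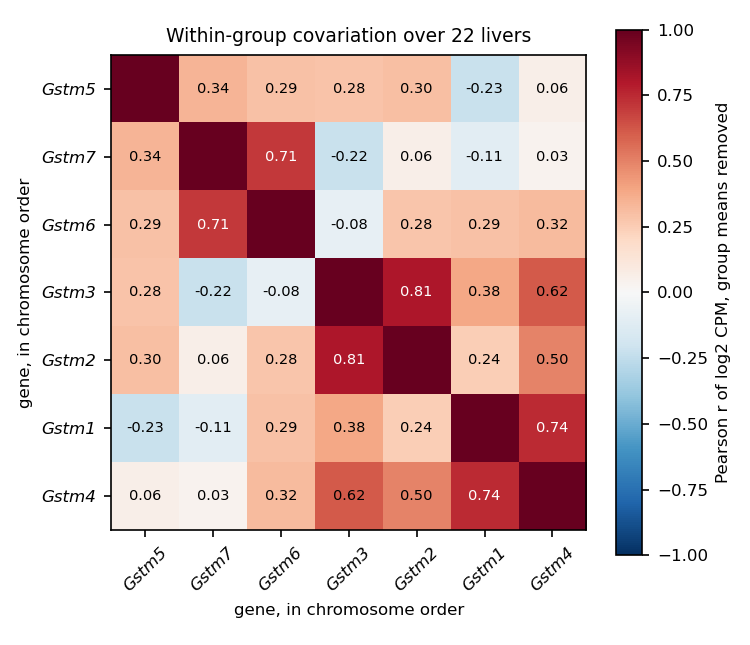
Pearson's r between the mu-class genes (both axes, in chromosome order) of log2 CPM after subtraction of group means, over 22 livers, with colour from -1 (blue) to 1 (red). The pairs Gstm3 and Gstm2 (0.81), Gstm1 and Gstm4 (0.74) and Gstm7 and Gstm6 (0.71) have the highest values, and the low values of Gstm1 with Gstm2 and Gstm3 (0.24 and 0.38) became 0.70 and 0.71 without the library labelled WT_CON_7607.

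Among 11990 genes outside the class with at least 1 CPM on average, those whose deviations were most like a member's were named by the same r over the 22 mice, as a description. For Gstm1 they were Gsta1, an alpha-class glutathione transferase (r = 0.92), Aox1, aldehyde oxidase (r = 0.91), and Ugdh, which makes the sugar donor of glucuronidation (r = 0.89). Without the library labelled WT_CON_7607 these were 0.81, 0.70 and 0.76. For Gstm4 they were Fyb2 (r = 0.85), Gsta1 (r = 0.81) and Srxn1, which repairs oxidized peroxiredoxins (r = 0.80), or 0.83, 0.77 and 0.73 without that library. Gstm3 was closest to Cenpe, a motor protein of the mitotic spindle (r = 0.91), and to Tmem97 (r = 0.84). Gstm2 was closest to Samd4, Rnf24 and Nusap1 (r = 0.80, 0.80 and 0.79). For the members with narrow spans the closest genes were Zfp608, Hpx and Dnajc10 for Gstm5 (r = 0.78, 0.75 and 0.74), Camk1d, Gm26621 and 1110012L19Rik for Gstm6 (r = 0.82, 0.81 and 0.80) and Irf2, Ly6e and Klhl3 for Gstm7 (r = 0.80, 0.80 and 0.78). These were the highest of many candidates and were not tested.

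The other steps of glutathione conjugation were read from lists of known genes, each beside the background shares already given. Of 14 tested glutathione transferases of the other cytosolic and mitochondrial classes, 6 rose on MR in WT and 4 in NRF2 KO, none fell, and the median log2 fold changes were 0.16 and 0.32. Named by the smallest adjusted p, Gsta2 (alpha class) rose by log2 2.89 in WT and 2.60 in NRF2 KO, Gstt2 (theta class) by 1.37 and 1.45, Gsta4 (alpha class, known for the detoxification of lipid aldehydes) by 1.64 and 1.56, and Gsto1 (omega class) by 0.85 and 0.46. In NRF2 KO 3 of the 14 were lower on Con (1 in the fit of those 2 groups alone) and 4 on MR, and none was higher. Gsta3, the most abundant of those named with 1391 ± 294 CPM (SD, n = 5) in WT Con, had log2 fold changes of -0.52 on Con and -0.58 on MR, and Gsta2 of -2.63 and -2.91. Gsta1 was also called lower on both diets, with 2.74 CPM in WT Con, 16.6 in WT MR, and in NRF2 KO 0.12 with Con and 0.49 with MR, and Gstp1 (pi class) was lower on MR (log2 -2.28). Gsta1 and Gsta2, and Gstp1 and its paralogs, are near-identical copies whose reads can be split, which leaves their levels uncertain. With the library labelled WT_CON_7607 left out, the counts were 6 higher and 1 lower on MR in WT, 4 lower in NRF2 KO Con and 5 lower in NRF2 KO MR.

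Of 4 tested microsomal transferases and relatives, 1 rose and 1 fell on MR in each genotype. Mgst3 rose by log2 1.398 in WT and 1.22 in NRF2 KO, Alox5ap, an accessory protein of leukotriene synthesis, was lower in WT (log2 -0.76), and Mgst1, an abundant membrane-bound glutathione transferase, was lower in NRF2 KO (log2 -0.72). Mgst1 was also lower in NRF2 KO than in WT on MR (log2 -0.84), and none of the 4 was called for genotype on Con.

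Of 8 genes that make, reduce or degrade glutathione, 5 rose on MR in each genotype and none fell, with medians of log2 0.46 and 0.39. Gss (glutathione synthetase) rose by log2 0.55 in WT and 0.46 in NRF2 KO, Gsr (glutathione reductase) by 0.66 and 0.49, and Gclm (the modifier subunit of glutamate-cysteine ligase) by 0.54 and 0.32. Oplah (oxoprolinase) rose by 0.38 in WT, with NRF2 KO means of 67.7 CPM on Con and 67.1 CPM on MR. Chac1, which breaks glutathione down, rose by 2.16 in NRF2 KO. Its WT means were 3.73 CPM on Con and 9.07 CPM on MR. Gclc, the catalytic subunit of the ligase, was lower in NRF2 KO, with log2 fold changes of -0.88 on Con and -1.41 on MR, and Gclm was lower on MR (log2 -0.39). On Con, where Gclc was the gene called, the fit of those 2 groups alone called 0 and the fit without KO_CON_7621 called 2. The count in WT was 3 without WT_CON_7603 or WT_MR_7616 and 4 without the library labelled WT_CON_7607.

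Of 13 tested genes of conjugate export and mercapturate formation, 4 rose and 1 fell on MR in WT, and 1 rose and 1 fell in NRF2 KO. The export pump Abcc4 rose in WT from 2.58 ± 0.49 (SD, n = 5) to 24.4 ± 8.96 CPM (SD, n = 5), log2 3.22, and had 2.67 ± 0.32 (SD, n = 6) and 4.10 ± 1.64 CPM (SD, n = 6) in NRF2 KO Con and MR. It was the gene of these lists for which the diet effect differed by genotype (interaction -2.60, SE 0.35, adjusted p = 0.0020 from edgeR, and -2.66 without the library labelled WT_CON_7607), a call that was lost over all 24 mice. The pumps Abcc5 and Abcc2, the latter of the bile canaliculus, rose in WT by log2 0.64 and 0.37, and Ggt6, of the gamma-glutamyltransferase family, by 0.61 in WT and 0.86 in NRF2 KO. The WT calls of Abcc2 (log2 0.29, adjusted p = 0.094 from edgeR) and Ggt6 (log2 0.51, adjusted p = 0.082) were lost without the library labelled WT_CON_7607. Acy3, an aminoacylase, was lower on MR in NRF2 KO (log2 -0.31), and the pump Abcc3 was lower in NRF2 KO, with log2 fold changes of -1.59 on Con and -2.35 on MR. The call of Abcc3 on Con was lost in the fit of those 2 groups alone. Calls in WT came to 3 without WT_CON_7602, WT_CON_7603, WT_MR_7609 or WT_MR_7611, 2 without WT_CON_7605 or the library labelled WT_CON_7607, and 1 without WT_MR_7613. They also came to 3 over all 24 mice and to 1 in the fit of the WT groups alone.

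Of 22 known NRF2 target genes outside the transferases, 3 of which (Gclc, Gclm and Gsr) are also in the glutathione list, 13 rose on MR in WT and 9 rose and 1 fell in NRF2 KO, with medians of log2 0.59 and 0.36. In NRF2 KO 10 were lower on Con and 14 on MR, and none was higher, with medians of log2 -0.58 and -1.11. Ephx1, an epoxide hydrolase, rose by log2 1.42 in WT and 0.93 in NRF2 KO and was lower in NRF2 KO, with log2 fold changes of -1.26 on Con and -1.75 on MR. Cbr1 (carbonyl reductase) and Htatip2 rose in WT by 1.81 and 1.59. Their NRF2 KO means were also higher on MR, from 117 to 204 CPM and from 15.4 to 29.0 CPM. Nqo1 (quinone reductase) and Ugdh rose in NRF2 KO by 1.90 and 1.06. Their WT means were also higher on MR, from 4.28 to 14.5 CPM and from 93.6 to 257 CPM. Slc7a11, the cystine importer, was called higher on MR in WT, with 0.07 CPM in WT Con and 8.75 ± 4.97 CPM (SD, n = 5) in WT MR. Its NRF2 KO means were 0.15 CPM on Con and 1.76 CPM on MR. Txnrd1 (thioredoxin reductase), Entpd5 and Aox1 were lower in NRF2 KO Con, with log2 fold changes of -0.64, -0.80 and -1.93. On MR Txnrd1 and Entpd5 were also lower, with log2 fold changes of -0.90 and -1.26. Aox1 averaged 72.9 CPM in WT MR and 15.9 CPM in NRF2 KO MR. With that WT Con library of doubtful label left out, the counts for MR were 12 higher in WT and 12 higher in NRF2 KO.

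Markers of other cell types and of liver zones were read in the same way. On MR 4 of 12 pericentral hepatocyte markers were lower in WT and 6 in NRF2 KO, and none was called for genotype on either diet, while none of 10 periportal markers was called in any comparison (with the library labelled WT_CON_7607 left out, 1 was lower on MR in NRF2 KO). Of 8 Kupffer cell markers 4 were lower on MR in WT and 3 in NRF2 KO, of 7 stellate cell markers 5 and 3, and of 5 tested bile duct markers 4 and 1, with 1 lower in NRF2 KO Con. The summed Kupffer cell markers ranged from 358 to 483 CPM in WT Con and from 289 to 327 CPM in WT MR, and the summed bile duct markers from 49.0 to 72.6 CPM and from 20.9 to 28.3 CPM, with Krt19 and Krt7 averaging 0.96 and 0.77 CPM over the 22 mice. Of 7 endothelial markers 1 was higher on MR in NRF2 KO, and without the library labelled WT_CON_7607 1 was also higher in NRF2 KO Con, and of the 6 hepatocyte markers 1 was lower on MR in each genotype and 2 were higher in NRF2 KO on MR. The summed hepatocyte markers ranged from 87650 to 116940 CPM in WT Con, 78097 to 94395 in WT MR, and in NRF2 KO 112775 to 131136 with Con and 96476 to 119722 with MR, so that NRF2 KO MR lay above WT MR in every mouse. Without the library labelled WT_CON_7607, 3 pericentral, 3 Kupffer cell and 3 stellate cell markers were lower on MR in WT. The part of these markers in the mu-class results was not tested.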

How the data were processed

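The study prepared 3′ QuantSeq libraries from mouse liver, and the authors deposited a table of gene counts, whole numbers of reads per gene in each of 24 mice, and a table of normalized signal. The deposited normalized values were tested and equal the counts divided by a constant for each mouse (largest relative deviation 5.1e-15). Whether these constants are DESeq2 size factors was not tested. The submitters' processing notes name GRCm38, mm10, R 3.4.3 and DESeq2 1.18.1. The labels give reads of 50 bases and the methods 75. The aligner's settings for reads shared by paralogs are not given in the sources used here, and unevenly assigned reads would blur differences between members.

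Counts of 22 mice were fitted in 1 model of 4 groups with edgeR 4.0.16 in R 4.3.3 (TMM scaling, filterByExpr, robust quasi-likelihood F-test), after which 13336 of 15160 genes were tested and 1824 were left out. Two-sided p-values were adjusted by Benjamini and Hochberg over all genes tested, with a threshold of 0.05. CPM were the TMM-scaled counts, and log2 CPM for correlations used a prior count of 2. Each mouse gave 1 library, so n counts mice. Totals of 6197291 to 22414684 reads per mouse, with at least 89 reads of any member in the 22 mice, set the precision. The model was first tested on simulated data.

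Symbols of 15119 genes were matched by identifier in GENCODE M21. Members and gene lists were chosen with earlier results of these data known. The text names all members, Nfe2l2, in each pathway list up to 4 called genes per comparison with the smallest adjusted p, the 3 genes most like each member by Pearson's r, and called neighbours within 250 kb. A gene that this rule names is not reported here. Alternatives were DESeq2 size factors, library size scaling, no filter, at least 10 counts in every mouse, DESeq2 1.42.0, limma 3.58.1 on the log2 of the deposited normalized values plus 1, only the groups compared, all 24 mice, and each of the 22 mice left out in turn. Correlations and neighbours without WT_CON_7607 were added after seeing the data.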

Additional observations from a re-analysis of the deposited data

Results flagged for a closer look

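Of the 28 combinations of member and group, 3 held a mouse whose gap to its nearest neighbour in CPM was large against the range of its group (Dixon's criterion). Chance gives about 1 in 20 for independent, normally distributed values. Members vary together within groups, so the count of 3 cannot be set against that rate. Gstm3 in WT_CON_7608 was 177 CPM, with the next mouse of WT Con at 48.8 CPM. In NRF2 KO Con the mouse KO_CON_7621 was far above the others for Gstm3, at 19.3 CPM with the next at 10.6 CPM, and for Gstm4, at 21.5 CPM with the next at 15.9 CPM.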

How the results depend on the processing

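Of 1043 values of the members under the alternatives, 1008 kept their direction and their side of the threshold. The number of members called with 1 mouse left out ran from 3 to 4 for MR in WT, 4 to 4 for MR in NRF2 KO, 4 to 5 for NRF2 KO on Con, 3 to 4 for NRF2 KO on MR and 0 to 0 for the interaction. In the fit of only the groups compared, 3 members were called for NRF2 KO on Con. Turned signs were all of values that passed in no fit. With library size scaling Gstm6 for MR in NRF2 KO was 0.14 and Gstm4 in the interaction 0.017, and with limma on the normalized values Gstm6 was 0.0054. With 1 mouse left out Gstm6 for MR in NRF2 KO ran from -0.10 to 0.067, Gstm7 from -0.024 to 0.11 and Gstm4 in the interaction from -0.27 to 0.052. Library size scaling moved the median of all genes to 0.15 for MR in NRF2 KO and gave 2397 higher and 388 lower calls there (831 and 846 with TMM), 1434 and 526 for MR in WT (922 and 921), and 63 and 165 for NRF2 KO on Con (107 and 169), the cause of which was not tested. The fit of only the groups compared was not made for the interaction, which needs all 4. No paired analysis was possible because the mouse numbers are not shared between groups. Depth limits Gstm5 most, with 89 to 383 reads per mouse.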

Other observations

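The mice that the study left out were scaled together with the other 22 for these values. WT_CON_7604 had 1496 CPM of Gstm1, 73.1 of Gstm2, 201 of Gstm3, 38.0 of Gstm4 and 51.5 of Gstm6. WT_MR_7612 had 4415 CPM of Gstm1, 143 of Gstm2, 638 of Gstm3 and 86.1 of Gstm4.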
